A study of Macaca mulatta with 34 samples.

Results

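Deep cerebellar nuclei (DCN) of rhesus macaques given an adeno-associated virus (AAV) vector whose cargo is labelled StufferOnly were compared with DCN of macaques given EmptyCapsid, the AAV protein shell without cargo. The comparison was chosen by sample titles: it takes the 3 StufferOnly and 3 EmptyCapsid total RNA libraries of the second of 2 studies, 6 of the 34 samples of the series. Both treatments were placed in the DCN by injection guided by magnetic resonance imaging, so injection was common to the groups. That second study was designed to characterise immune responses to new AAV constructs for RNA interference, and a further group of it, miSCA7Stuffer (3 libraries), entered the fit to share the estimate of the spread between animals. Within each group the animals carry separate identifiers. The labels give no age, sex, dose or time after injection.

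The DCN are the output nuclei of the cerebellum: large excitatory projection neurons and smaller inhibitory neurons receive Purkinje cell axons and lie in dense white matter. A stuffer is filler DNA that brings a vector genome to packaging length and is not meant to encode a product. In brain tissue, microglia and incoming macrophages clear debris through lysosomes, interferons and antigen presentation alert and engage lymphocytes, and astrocytes and oligodendrocytes sustain ion balance, transmitter uptake and myelin. All values below are of bulk tissue, in which fewer cells of a type and less RNA per cell cannot be told apart.

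Libraries held 22183232 to 32618716 counts in genes in the StufferOnly group and 28496977 to 39792653 in the EmptyCapsid group. Replicates within a group differed by far more than sampling noise, with a chi-square per gene of 58.5 to 110 between StufferOnly libraries and 17.5 to 31.4 between EmptyCapsid libraries. Expression is given as CPM, counts for each 1000000 counts in genes after scaling of libraries by the TMM method, which does not correct for gene length, so levels are compared between libraries and never between genes. SLC17A6, the vesicular glutamate transporter of projection neurons, was present in every library, while the transcription factors TBR1 and LHX9, which mark subsets of these neurons, stayed at or below 1.52 CPM in all 6. Libraries also differed within groups. StufferOnly replicate 2 was far above the other libraries in some granule cell genes of the overlying cortex. FAT2, an adhesion protein of granule cells, had 5.67, 187 and 10.9 CPM in StufferOnly, against 11.4, 6.37 and 13.9 CPM in EmptyCapsid. GABRA6, the granule cell GABA receptor subunit, had 0.594, 30.0 and 1.36 CPM in StufferOnly, against 1.94, 0.300 and 1.49 CPM in EmptyCapsid. Other granule cell genes did not follow. In 4 of 17 every StufferOnly library, replicate 2 included, was below EmptyCapsid, against 22.3% of all genes. PAX6 was 1 of them, with 39.7, 42.3 and 37.3 CPM in StufferOnly, against 64.7, 60.6 and 49.8 CPM in EmptyCapsid. Y-linked genes had reads in StufferOnly replicate 1 and EmptyCapsid replicates 1 and 3, with DDX3Y at 102, 95.1 and 95.7 CPM there and at most 0.0618 CPM in the other 3 libraries. Principal component 1, which held 58.76% of the variance over 9 libraries, placed StufferOnly replicate 1 at 28.8 and replicates 2 and 3 at 95.9 and 82.0, against -87.3, -87.9 and -90.5 in EmptyCapsid. The part of sex and of cortical tissue in the results below was not tested, but each list was also counted without StufferOnly replicate 2.

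**Figure D1:**
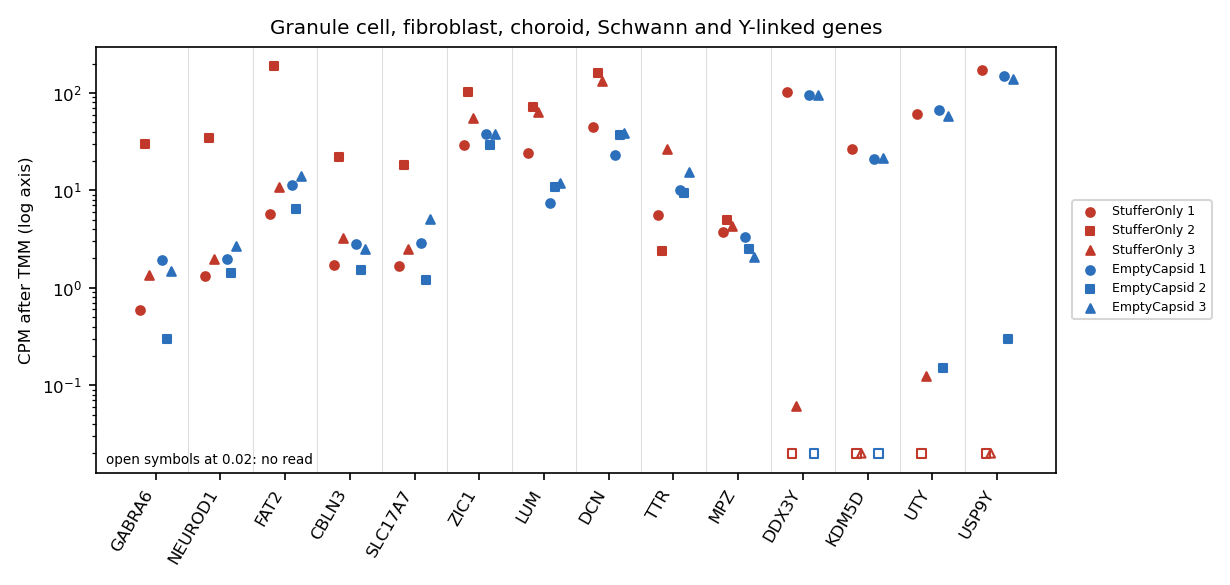
CPM (log axis) of granule cell genes, fibroblast, choroid plexus and Schwann cell markers and Y-linked genes in the 3 StufferOnly and 3 EmptyCapsid libraries, 1 point a library, with open symbols where no read was counted. StufferOnly replicate 2 is highest for the granule cell genes shown, which are part of a longer list, with FAT2 at 187 CPM against at most 13.9 CPM in the other 5 libraries. Y-linked reads divide both groups.

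Reads from the vectors separated the groups completely. A vector genome row is named GpKFBextmU6miS1newStfr, a name that holds miS1 as well as a new stuffer, so it is not named for the StufferOnly vector alone. It had 349.7, 625.3 and 247.5 reads for each 1000000 counts in genes (RPM) in StufferOnly. In EmptyCapsid it had 0.151, 0.281 and 0.191 RPM, where 6, 8 and 6 reads were counted. The stuffer row itself had 290.2, 490.5 and 192.9 RPM in StufferOnly, against 0.0503, 0.281 and 0.191 RPM in EmptyCapsid. Replicate 2 was highest and replicate 3 lowest in both rows, and no EmptyCapsid library came near. Vector rows overlap, and a read counts in each row it covers. Summed over all 8 rows, the mean was 768.1 ± 366 RPM in StufferOnly and 0.614 ± 0.328 RPM in EmptyCapsid (SD, n = 3 each), a difference of 10.29 on the log2 scale with a pseudocount of 0.01 RPM. The two-sided exact permutation p was 0.1, the smallest that 3 against 3 animals allow.

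The other vector rows were much smaller. Rep2 and Cap1, named for the AAV replication and coat genes that are normally supplied apart from the vector during production, had 11.3, 26.6 and 7.79 RPM and 8.61, 16.7 and 6.92 RPM in StufferOnly. In EmptyCapsid, Rep2 had 0, 0.0702 and 0.0636 RPM and Cap1 had 0.0503, 0 and 0 RPM, at most 2 reads a library. For these low counts the exact Poisson 95% intervals reached no higher than 0.2535 RPM, and such intervals cover counting error only. Every StufferOnly library was thus above every EmptyCapsid library for both rows. The rows named RNAi_Expression_Cassette and Pri_miRNA had 5.49, 7.17 and 3.24 RPM and 4.63, 5.54 and 2.49 RPM in StufferOnly. In EmptyCapsid each of these rows had 0.0251, 0 and 0 RPM, with 1 read in replicate 1. The row of the artificial microRNA miS1 had no read in any of the 6 libraries, where the exact Poisson 95% upper limit was 0.1663 RPM in the shallowest. A row for an intronic miS1 construct had 0.613, 0.902 and 0.187 RPM in StufferOnly, against 0.0503, 0.351 and 0.0636 RPM in EmptyCapsid, and here the groups overlapped.

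**Figure D2:**
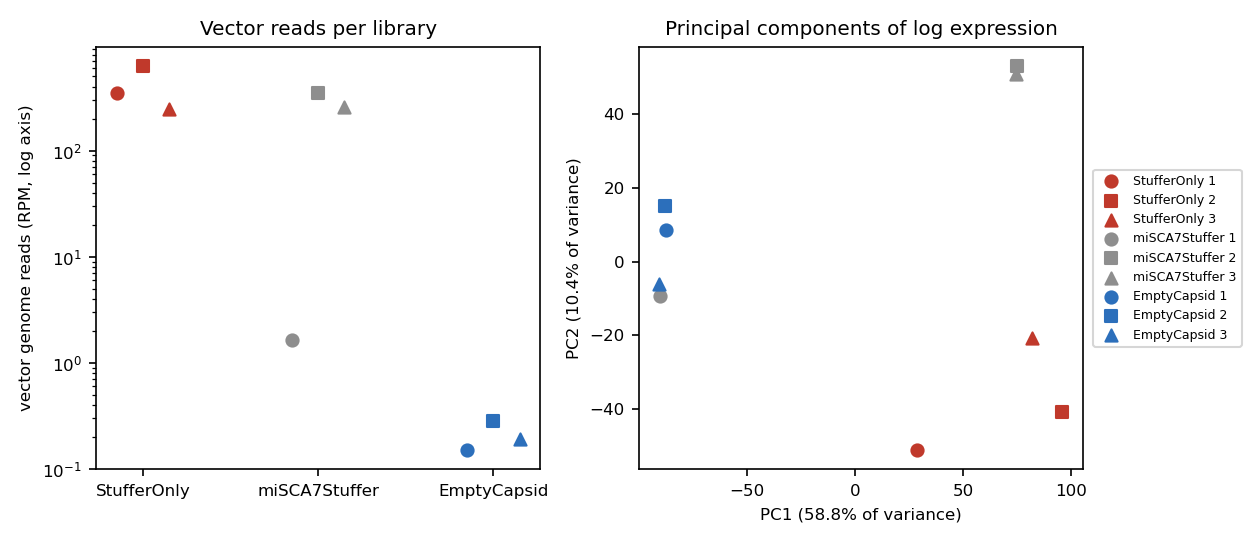
Left, RPM of the vector genome row (log axis) in each StufferOnly, miSCA7Stuffer and EmptyCapsid library; right, principal components 1 and 2 of log2 CPM for the same 9 libraries. StufferOnly libraries lie between 247.5 and 625.3 RPM, miSCA7Stuffer replicate 1 lies with the EmptyCapsid libraries on component 1, and StufferOnly replicate 1 falls between the other StufferOnly libraries and EmptyCapsid.

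Gene expression differed between the groups across a large part of the transcriptome. Of 20882 genes tested with edgeR in the joint fit of 9 libraries, 2424 rose in StufferOnly (11.6%) and 795 fell (3.81%) at a Benjamini-Hochberg adjusted p under 0.05. Rises made up 75.3% of the calls of that fit, a share that depended on the libraries fitted, as given below. The median log2 fold change was 1.65 among genes that rose and -0.78 among genes that fell, against 0.02 over all genes tested. A rise of 2 or more on the log2 scale (4-fold) was seen for 999 genes, and a fall of that size for 26. DESeq2 on the same counts called more falls, 3391 genes higher (16.2%) and 1938 lower (9.28%). The fit of the 6 compared libraries alone called 3786 of 20028 genes higher (18.9%) and 2528 lower (12.6%), and 3196 of the 3219 calls of the joint fit were among them with the same sign.

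The joint counts rest on the libraries in the fit. miSCA7Stuffer replicate 1 held almost no vector reads (3.15 RPM over all vector rows), and it lay with EmptyCapsid on principal component 1. Without that library the joint fit called 3520 genes higher and 3735 lower, so that rises were 48.52% of the calls and no longer the majority. With it, leaving out StufferOnly replicate 2 or 3 left 21 or 44 genes higher and 0 or 9 lower, and leaving out EmptyCapsid replicate 1, 2 or 3 left 0, 1 or 16 higher and 0, 0 or 4 lower, although 5108 to 5532 genes had an unadjusted p under 0.05 in those fits. Every one of the 3219 genes kept its sign in all of those fits. That is no test of direction, since genes whose groups do not overlap hardly change sign when 1 library is left out. The 6-library fit called 2690 to 4277 genes higher and 1056 to 3646 lower when any library was left out, with 15.2% higher and 8.64% lower without StufferOnly replicate 2. Both fits are therefore counted for each gene group, and rises and falls named below are calls of the joint fit unless the 6-library fit is named. No StufferOnly library overlapped an EmptyCapsid library in 3218 of the 3219 called genes. That separation was also common among all genes tested, since in 26.8% every StufferOnly library was above every EmptyCapsid library and in 22.3% below. Among the 2424 genes that rose, StufferOnly replicate 1 was the lowest of its group in 1619 and replicate 2 the highest in 1600.

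The largest rises were of genes with little or no signal in EmptyCapsid tissue. CCL18, a chemokine of alternatively activated macrophages that draws T cells, had 18.7, 29.6 and 19.3 CPM in StufferOnly and no read in EmptyCapsid, at least 749-fold higher against a floor of 3 counts over the group. CCR7, the receptor that guides lymphocytes and dendritic cells to lymphoid tissue, had 1.25, 12.2 and 0.958 CPM in StufferOnly and no read in EmptyCapsid, at least 159-fold higher on the same floor. Both passed the test, with adjusted p = 0.025 and 0.0295. PLA2G2D, a secreted phospholipase, had 192, 171 and 102 CPM in StufferOnly, against 0.207, 0.412 and 0.0330 CPM in EmptyCapsid (log2 fold change 9.49, SE 2.17, adjusted p = 0.0263). CDH1, which encodes E-cadherin, had 79.9, 163 and 60.9 CPM in StufferOnly, against 0.389, 0.0749 and 0.132 CPM in EmptyCapsid (log2 fold change 8.87, SE 1.90, adjusted p = 0.0234). MMP9, a gelatinase that opens basement membranes, had 42.7, 415 and 107 CPM in StufferOnly, against 0.544, 0.262 and 0.132 CPM in EmptyCapsid (log2 fold change 9.16, SE 1.83, adjusted p = 0.0206). CCR7 and MMP9 were carried mostly by StufferOnly replicate 2, whereas CCL18, PLA2G2D and CDH1 were high in all 3 StufferOnly libraries, and no library of one group reached the other. GPNMB, CHIT1 and IGHM completed the 8 largest rises, with log2 fold changes of 9.73, 10.98 and 10.05.

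The largest falls were smaller on the log2 scale than the largest rises. SLC13A5, a citrate transporter, had 0.237, 0.554 and 0.247 CPM in StufferOnly, against 3.50, 4.27 and 4.39 CPM in EmptyCapsid (log2 fold change -3.57, SE 0.54, adjusted p = 0.0175). CYP26B1, which degrades retinoic acid, had 6.35, 8.50 and 9.61 CPM in StufferOnly, against 52.4, 77.9 and 75.4 CPM in EmptyCapsid (log2 fold change -3.07, SE 0.69, adjusted p = 0.025). BMP4, a bone morphogenetic protein ligand, had 2.11, 1.39 and 1.58 CPM in StufferOnly, against 9.85, 5.43 and 9.18 CPM in EmptyCapsid (log2 fold change -2.26, SE 0.49, adjusted p = 0.0236). StufferOnly libraries lay close together and below every EmptyCapsid library for all 3 genes. PIWIL2, an Argonaute family protein of the germ line, had 0.475, 0.554 and 1.30 CPM in StufferOnly, against 6.25, 1.20 and 7.13 CPM in EmptyCapsid (log2 fold change -2.63, SE 0.70, adjusted p = 0.0393); it was the single called gene in which the groups overlapped, through EmptyCapsid replicate 2. RTP5, USH1C, SLC25A48 and AQP6 fell by 2.59, 2.33, 2.21 and 2.17 on the log2 scale.

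The smallest p values belonged to genes that moved by similar amounts in every animal. TMEM266, a voltage-sensing membrane protein, had 29.2, 38.2 and 34.2 CPM in StufferOnly, against 3.78, 4.53 and 3.30 CPM in EmptyCapsid (log2 fold change 3.13, SE 0.22, adjusted p = 0.0055). TECPR1, which links autophagosomes to lysosomes, had 53.3, 62.8 and 58.4 CPM in StufferOnly, against 18.6, 19.7 and 22.2 CPM in EmptyCapsid (log2 fold change 1.53, SE 0.12, adjusted p = 0.00566). RARA, a retinoic acid receptor, had 19.2, 19.6 and 19.97 CPM in StufferOnly, against 5.65, 5.69 and 6.80 CPM in EmptyCapsid (log2 fold change 1.70, SE 0.14, adjusted p = 0.00697). Within each group the 3 libraries nearly coincided for RARA and TECPR1, including StufferOnly replicate 1. On the falling side, KCNJ10, the potassium channel by which astrocytes buffer extracellular potassium, had 392.1, 361 and 387 CPM in StufferOnly, against 809, 837 and 986 CPM in EmptyCapsid (log2 fold change -1.21, SE 0.13, adjusted p = 0.00947). PAQR6, a membrane progestin receptor, had 187, 161 and 226 CPM in StufferOnly, against 587, 534 and 460.1 CPM in EmptyCapsid (log2 fold change -1.46, SE 0.16, adjusted p = 0.0106). SLCO1A2, an organic anion transporter of brain capillaries, had 53.2, 42.0 and 51.1 CPM in StufferOnly, against 134, 105 and 116 CPM in EmptyCapsid (log2 fold change -1.28, SE 0.16, adjusted p = 0.0133). EmptyCapsid libraries lay above every StufferOnly library in each case.

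Genes of lipid-laden phagocytes rose as a group. Of 23 tested, 18 rose and 1 fell, with a median log2 fold change of 3.25, and 21 rose and 1 fell in the 6-library fit. PLIN2, the coat protein of lipid droplets, had 27.6, 23.5 and 31.5 CPM in StufferOnly, against 2.75, 2.92 and 2.97 CPM in EmptyCapsid (log2 fold change 3.25, SE 0.52, adjusted p = 0.0181). LGALS3, a galectin of phagocytes, had 439, 916 and 736 CPM in StufferOnly, against 11.2, 16.8 and 12.02 CPM in EmptyCapsid (log2 fold change 5.71, SE 1.06, adjusted p = 0.0194). CD68, a lysosomal glycoprotein of macrophages, had 573, 970.4 and 768 CPM in StufferOnly, against 19.9, 15.5 and 16.7 CPM in EmptyCapsid (log2 fold change 5.47, SE 1.06, adjusted p = 0.02). PLIN2 differed little among the StufferOnly animals, while LGALS3 and CD68 were highest in replicate 2. TREM2, the lipid receptor of microglia, rose to 76.3, 85.2 and 78.8 CPM, against 10.7, 4.91 and 8.39 CPM in EmptyCapsid. LPL, a lipoprotein lipase often grouped with these genes, fell instead, with 109.8, 93.0 and 111 CPM in StufferOnly, against 169.8, 174 and 167 CPM in EmptyCapsid (log2 fold change -0.70, SE 0.18, adjusted p = 0.034). SPP1, which encodes osteopontin, did not pass in the joint fit, with 1083, 1042 and 1070.2 CPM in StufferOnly, against 569, 767 and 856 CPM in EmptyCapsid (adjusted p = 0.112).

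Microglial identity genes did not move together. Of 11 homeostatic microglia genes, 4 rose and none fell (7 and 1 in the 6-library fit), with a median of 1.11. Those that rose are shared with other myeloid cells: SPI1, the transcription factor PU.1, had 66.7, 95.4 and 76.5 CPM in StufferOnly, against 11.1, 9.78 and 10.8 CPM in EmptyCapsid (log2 fold change 2.91, SE 0.55, adjusted p = 0.0199), and CSF1R, the growth factor receptor on which microglia depend, had 349, 319.5 and 295 CPM in StufferOnly, against 157, 183 and 191 CPM in EmptyCapsid (log2 fold change 0.86, SE 0.17, adjusted p = 0.0207). P2RY12, a purine receptor used as a marker of resting microglia, had 79.4, 38.1 and 67.5 CPM in StufferOnly, against 71.4, 83.3 and 102 CPM in EmptyCapsid (adjusted p = 0.256). CX3CR1, the fractalkine receptor, had 61.1, 14.97 and 40.1 CPM in StufferOnly, against 115, 136 and 158 CPM in EmptyCapsid (adjusted p = 0.0739 in the joint fit and 0.018 in the 6-library fit). StufferOnly libraries lay below EmptyCapsid for CX3CR1 and overlapped them for P2RY12. Among 11 monocyte and macrophage genes 7 rose and 1 fell, and the 6-library fit gave 7 and 1 of 10. SIGLEC1, a sialic acid receptor of macrophages, had 53.3, 146 and 114 CPM in StufferOnly, against 2.57, 3.30 and 2.58 CPM in EmptyCapsid (log2 fold change 5.21, SE 0.91, adjusted p = 0.0187). CD14, the lipopolysaccharide co-receptor, had 48.1, 52.1 and 44.2 CPM in StufferOnly, against 8.55, 6.07 and 7.13 CPM in EmptyCapsid (log2 fold change 2.73, SE 0.48, adjusted p = 0.0187). LYZ, lysozyme, had 92.4, 596 and 239 CPM in StufferOnly, against 6.58, 7.53 and 6.90 CPM in EmptyCapsid (log2 fold change 5.46, SE 1.16, adjusted p = 0.0228). All 3 were clear of EmptyCapsid in every StufferOnly animal, and LYZ varied the most among them. VCAN, a matrix proteoglycan that monocytes and glial precursors both make, fell, with 220.0, 146 and 154 CPM in StufferOnly, against 394, 322 and 313 CPM in EmptyCapsid (log2 fold change -0.99, SE 0.21, adjusted p = 0.0233).

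Lysosomal genes rose almost throughout. Of 30 tested, 26 rose and none fell in the joint fit, and 28 rose and 1 fell in the 6-library fit; the median was 1.94. CTSD, a major aspartic protease of lysosomes, had 2892, 4979.9 and 3327 CPM in StufferOnly, against 314, 327 and 307 CPM in EmptyCapsid (log2 fold change 3.56, SE 0.66, adjusted p = 0.0194). PSAP, the precursor of the saposins that help digest sphingolipids, had 2391, 3350.0 and 3108 CPM in StufferOnly, against 867, 1003 and 942 CPM in EmptyCapsid (log2 fold change 1.65, SE 0.26, adjusted p = 0.0181). GUSB, beta-glucuronidase, had 127, 186 and 132 CPM in StufferOnly, against 34.4, 29.2 and 31.1 CPM in EmptyCapsid (log2 fold change 2.23, SE 0.35, adjusted p = 0.0181). NEU1, a sialidase, had 56.9, 58.0 and 53.2 CPM in StufferOnly, against 23.3, 22.1 and 20.7 CPM in EmptyCapsid (log2 fold change 1.35, SE 0.21, adjusted p = 0.0181). Replicate 2 was highest of the StufferOnly libraries for each, and the EmptyCapsid libraries were tightly grouped. TFEB, the master regulator of lysosomal genes, rose by 0.79 on the log2 scale (adjusted p = 0.0283). LAMP2, a lysosomal membrane protein, had 404, 463 and 557 CPM in StufferOnly, against 412, 511 and 462 CPM in EmptyCapsid (adjusted p = 0.922), with the groups overlapping.

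Cholesterol handling split into export genes that rose and synthesis genes that fell. Of 17 genes of sterol efflux, storage and export, 11 rose and none fell (12 and 2 in the 6-library fit), with a median of 1.78. NR1H3, the liver X receptor that senses oxysterols, had 27.8, 31.0 and 32.9 CPM in StufferOnly, against 0.803, 1.16 and 1.22 CPM in EmptyCapsid (log2 fold change 4.85, SE 0.86, adjusted p = 0.0188). ABCG1 and ABCA1, the transporters that load cholesterol onto lipoproteins, had 82.9, 82.9 and 86.6 CPM and 497, 555 and 581 CPM in StufferOnly, against 36.9, 33.5 and 43.5 CPM and 97.8, 122.8 and 119 CPM in EmptyCapsid. CH25H, which makes 25-hydroxycholesterol, had 8.94, 6.33 and 10.1 CPM in StufferOnly, against 1.06, 0.637 and 2.21 CPM in EmptyCapsid (log2 fold change 2.69, SE 0.49, adjusted p = 0.0194). Each rose in all 3 StufferOnly animals by a similar amount. Of 21 sterol synthesis genes, 7 fell and 1 rose (14 and 1 in the 6-library fit), with a median of -0.85. MSMO1, a sterol demethylase, had 39.1, 22.5 and 24.7 CPM in StufferOnly, against 93.8, 101 and 79.5 CPM in EmptyCapsid (log2 fold change -1.67, SE 0.34, adjusted p = 0.0212). StufferOnly libraries were below EmptyCapsid for that enzyme.

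The 1 sterol synthesis gene that rose is uncertain. FDFT1, squalene synthase, is the immediate neighbour of CTSB, the protease cathepsin B, in the RefSeq assembly T2T-MMU8v2.0, which is not known to be the build of the counts. CTSB had 2966, 6963 and 4009 CPM in StufferOnly, against 341, 350.1 and 310.4 CPM in EmptyCapsid (log2 fold change 3.80, SE 0.72, adjusted p = 0.0199). FDFT1 counts amounted to 59.8%, 61.7% and 62.9% of CTSB counts in StufferOnly, against 84.0%, 80.7% and 84.0% in EmptyCapsid. The counting let a read fall in every gene it overlapped, and whether reads were shared between the pair was not tested.

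Complement and antibody receptor genes were higher in StufferOnly tissue. Of 13 complement components, 9 rose and none fell (10 and 0 in the 6-library fit), with a median of 2.81. CFP, properdin, which stabilises the alternative pathway convertase, had 6.47, 6.42 and 6.68 CPM in StufferOnly, against 0.104, 0.1498 and 0.528 CPM in EmptyCapsid (log2 fold change 4.64, SE 0.68, adjusted p = 0.0164). C1QA, a chain of the initiator of the classical pathway, had 89.5, 57.8 and 62.9 CPM in StufferOnly, against 11.6, 12.3 and 11.8 CPM in EmptyCapsid (log2 fold change 2.56, SE 0.41, adjusted p = 0.0181). CFB, factor B of the alternative pathway, had 142, 205 and 178 CPM in StufferOnly, against 16.3, 13.6 and 13.01 CPM in EmptyCapsid (log2 fold change 3.61, SE 0.73, adjusted p = 0.0207). The 3 StufferOnly libraries were close together for CFP and stood far above EmptyCapsid for each gene. C3, the central component, had 969, 941 and 903 CPM in StufferOnly, against 688, 762 and 505 CPM in EmptyCapsid and did not pass in the joint fit (adjusted p = 0.256). Of 15 complement receptors and regulators, 9 rose and none fell (11 and 0 of 14 in the 6-library fit), with a median of 2.18. CR1, the receptor for C3b, had 47.3, 68.6 and 53.1 CPM in StufferOnly, against 0.492, 0.936 and 0.0991 CPM in EmptyCapsid (log2 fold change 6.80, SE 1.43, adjusted p = 0.0225). C5AR2, a receptor for the C5a fragment, had 3.56, 4.99 and 3.03 CPM in StufferOnly, against 0.622, 1.20 and 0.859 CPM in EmptyCapsid (log2 fold change 2.11, SE 0.35, adjusted p = 0.0181). CLU, a soluble inhibitor, did not pass, with adjusted p = 0.67.

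Fc receptors, which bind antibody, rose in 7 of 8 tested genes, with a median of 3.63, and in 8 of 8 in the 6-library fit. FCGRT, the neonatal Fc receptor that recycles IgG, had 109, 90.7 and 70.3 CPM in StufferOnly, against 34.8, 36.8 and 35.3 CPM in EmptyCapsid (log2 fold change 1.34, SE 0.22, adjusted p = 0.0181). FCGR3, a low affinity IgG receptor, had 8.61, 23.2 and 15.4 CPM in StufferOnly, against 0.777, 0.824 and 1.75 CPM in EmptyCapsid (log2 fold change 3.81, SE 0.67, adjusted p = 0.0188). FCER1G, the signalling chain, had 58.7, 66.7 and 88.6 CPM in StufferOnly, against 6.45, 5.88 and 7.30 CPM in EmptyCapsid (log2 fold change 3.45, SE 0.76, adjusted p = 0.0241). The groups were separate for each gene, although the order of the StufferOnly animals was reversed between FCGRT, highest in replicate 1, and FCER1G, highest in replicate 3. Genes of the phagocyte oxidase and of eicosanoid synthesis rose in 9 of 15 cases (12 of 15 in the 6-library fit) and none fell, with a median of 2.45. RAC2, the GTPase that activates the oxidase, had 54.6, 127 and 116 CPM in StufferOnly, against 1.14, 0.974 and 1.59 CPM in EmptyCapsid (log2 fold change 6.33, SE 0.95, adjusted p = 0.0171). CYBB, its catalytic subunit, had 275, 446 and 403 CPM in StufferOnly, against 15.4, 14.98 and 17.01 CPM in EmptyCapsid (log2 fold change 4.57, SE 0.90, adjusted p = 0.0202). PTGS2, cyclooxygenase 2, had 4.96, 4.71 and 5.87 CPM in StufferOnly, against 1.011, 0.599 and 0.727 CPM in EmptyCapsid (adjusted p = 0.0831). All 3 were higher in every StufferOnly animal, the last without passing in the joint fit.

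Iron and heme genes included the stores that macrophages fill on digesting cells. Of 16 tested, 10 rose and 1 fell (11 and 2 in the 6-library fit), with a median of 0.94. HMOX1, heme oxygenase, had 36.0, 23.7 and 33.3 CPM in StufferOnly, against 6.01, 4.01 and 5.25 CPM in EmptyCapsid (log2 fold change 2.603, SE 0.38, adjusted p = 0.0163). FTL, ferritin light chain, had 2071, 2974 and 2691 CPM in StufferOnly, against 518, 589 and 554 CPM in EmptyCapsid (log2 fold change 2.22, SE 0.51, adjusted p = 0.0265). STEAP3, a ferrireductase, had 8.25, 9.15 and 9.03 CPM in StufferOnly, against 4.43, 4.79 and 4.53 CPM in EmptyCapsid (log2 fold change 0.94, SE 0.19, adjusted p = 0.0205). The heme transporter SLC48A1 fell, with 92.9, 109 and 94.9 CPM in StufferOnly, against 139, 145 and 139 CPM in EmptyCapsid (log2 fold change -0.51, SE 0.11, adjusted p = 0.0219). Red cell transcripts were near 0 in both groups: the summed level of HBA and AHSP was 2.16 to 5.68 CPM in StufferOnly and 2.92 to 9.38 CPM in EmptyCapsid. Neither gene passed in either edgeR fit, by DESeq2 or at an unadjusted p under 0.05, and their median was -0.90.

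Of 22 sensors of nucleic acids and microbial products, 13 rose and none fell, and 18 rose in the 6-library fit; the median was 1.36. UNC93B1, which carries endosomal Toll-like receptors to their compartment, had 47.8, 68.8 and 60.9 CPM in StufferOnly, against 9.64, 6.11 and 9.25 CPM in EmptyCapsid (log2 fold change 2.83, SE 0.58, adjusted p = 0.0216). CGAS, the cytosolic DNA sensor, had 8.70, 8.73 and 8.62 CPM in StufferOnly, against 1.68, 2.21 and 2.11 CPM in EmptyCapsid (log2 fold change 2.12, SE 0.49, adjusted p = 0.0263). TLR9, the endosomal sensor of unmethylated CpG DNA, had 1.04, 4.34 and 1.55 CPM in StufferOnly, against 0.363, 0.375 and 0.330 CPM in EmptyCapsid (log2 fold change 2.67, SE 0.58, adjusted p = 0.0236). STING1, the adaptor downstream of CGAS, had 14.3, 42.9 and 18.9 CPM in StufferOnly, against 3.16, 2.13 and 3.10 CPM in EmptyCapsid (log2 fold change 3.17, SE 0.76, adjusted p = 0.0296). CGAS was almost equal in the 3 StufferOnly animals, whereas TLR9 and STING1 peaked in replicate 2. TLR7, the endosomal sensor of single-stranded RNA, did not pass, with 21.8, 11.1 and 14.6 CPM in StufferOnly, against 16.7, 18.7 and 23.8 CPM in EmptyCapsid (adjusted p = 0.458). MAVS, the adaptor of the cytosolic RNA sensors, also did not pass, with 120.2, 126 and 128 CPM in StufferOnly, against 103, 102 and 107 CPM in EmptyCapsid (adjusted p = 0.12).

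Interferon signalling and interferon-stimulated genes rose in part. Of 22 signalling genes, 13 rose and none fell (18 and 0 of 21 in the 6-library fit), with a median of 1.02. IRF8, a myeloid interferon regulatory factor, had 76.7, 76.4 and 86.1 CPM in StufferOnly, against 14.3, 17.9 and 22.8 CPM in EmptyCapsid (log2 fold change 2.12, SE 0.40, adjusted p = 0.0198), and IRF5, which acts below Toll-like receptors, had 76.9, 92.7 and 76.7 CPM in StufferOnly, against 14.4, 11.0 and 13.6 CPM in EmptyCapsid (log2 fold change 2.66, SE 0.52, adjusted p = 0.02). IFNB1, interferon beta itself, had 0.386, 0.462 and 0.185 CPM in StufferOnly, against 0.130, 0 and 0.0661 CPM in EmptyCapsid (adjusted p = 0.15), values resting on few reads. Of 32 interferon-stimulated genes, 11 rose and none fell in the joint fit, but 25 rose and 1 fell in the 6-library fit, with a median of 1.64. IFI35 had 7.15, 9.42 and 10.04 CPM in StufferOnly, against 2.77, 3.22 and 2.51 CPM in EmptyCapsid (log2 fold change 1.65, SE 0.32, adjusted p = 0.02). EPSTI1 had 11.96, 23.2 and 28.3 CPM in StufferOnly, against 1.84, 1.27 and 2.21 CPM in EmptyCapsid (log2 fold change 3.57, SE 0.79, adjusted p = 0.0245). MX2, a nuclear restriction factor, had 60.8, 74.3 and 85.5 CPM in StufferOnly, against 8.34, 8.95 and 11.2 CPM in EmptyCapsid (log2 fold change 2.95, SE 0.70, adjusted p = 0.029). StufferOnly libraries were all above EmptyCapsid for the 3 genes. ISG15, a ubiquitin-like modifier, and RSAD2, viperin, did not pass in either fit. ISG15 had 4.33, 5.36 and 4.27 CPM in StufferOnly, against 2.51, 1.65 and 4.39 CPM in EmptyCapsid, and RSAD2 had 3.80, 6.14 and 5.66 CPM in StufferOnly, against 5.80, 3.15 and 4.59 CPM in EmptyCapsid, and the groups overlapped in both.

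Antigen presentation rose on both arms. All 10 MHC class II pathway genes tested rose in both fits, with a median of 3.40. MAMU-DRA, the invariant DR chain, had 445, 985 and 748 CPM in StufferOnly, against 72.1, 63.8 and 60.05 CPM in EmptyCapsid (log2 fold change 3.47, SE 0.68, adjusted p = 0.02). CIITA, the transactivator of class II genes, had 28.3, 93.8 and 52.5 CPM in StufferOnly, against 9.20, 6.52 and 5.78 CPM in EmptyCapsid (log2 fold change 3.02, SE 0.60, adjusted p = 0.0202). IFI30, the lysosomal thiol reductase that unfolds antigen, had 313, 713 and 469.6 CPM in StufferOnly, against 7.02, 8.13 and 9.08 CPM in EmptyCapsid (log2 fold change 5.95, SE 1.20, adjusted p = 0.0207). Replicate 2 was highest and replicate 1 lowest of the StufferOnly animals for each, and all were several-fold above EmptyCapsid. Of 18 class I genes, 11 rose and none fell (15 and 0 in the 6-library fit), with a median of 1.66. TAPBP, tapasin, which loads peptide, had 159, 276 and 209.8 CPM in StufferOnly, against 53.4, 57.7 and 60.6 CPM in EmptyCapsid (log2 fold change 1.91, SE 0.36, adjusted p = 0.0199). B2M, the shared light chain, had 1236, 3610.3 and 2573 CPM in StufferOnly, against 215, 289.6 and 238 CPM in EmptyCapsid (log2 fold change 3.32, SE 0.81, adjusted p = 0.031). NLRC5, the transactivator of class I genes, had 44.2, 126 and 61.5 CPM in StufferOnly, against 9.30, 5.77 and 9.08 CPM in EmptyCapsid (log2 fold change 3.26, SE 0.73, adjusted p = 0.0247). MAMU-A, Mamu-B, MAMU-E and MAMU-F also rose, but near-identical class I genes can exchange reads, so values of single class I genes are uncertain. CANX, a general chaperone of the endoplasmic reticulum, had 647, 722 and 669 CPM in StufferOnly, against 612, 671 and 639.8 CPM in EmptyCapsid (adjusted p = 0.646), with groups that overlapped.

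**Figure D3:**
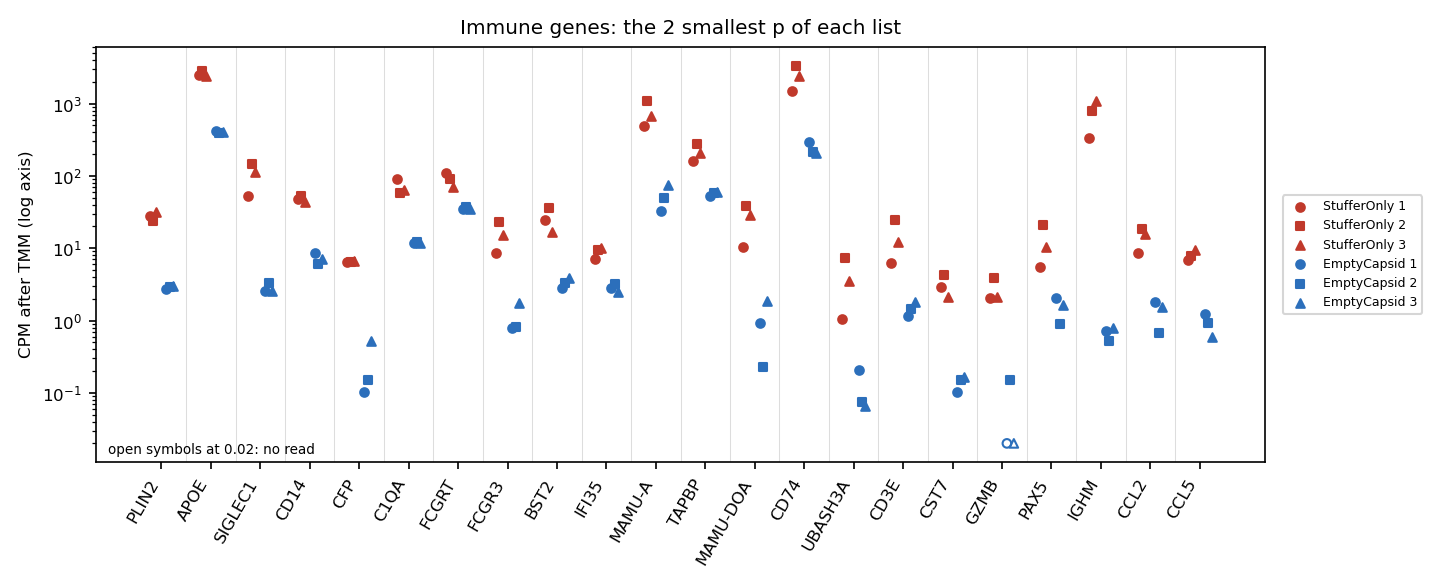
CPM (log axis) of the 2 immune genes with the smallest p in each of 11 lists, 1 point a library for 3 StufferOnly and 3 EmptyCapsid animals, with open symbols where no read was counted. StufferOnly lies above EmptyCapsid in every gene shown, from 6.42 to 6.68 CPM against 0.104 to 0.528 CPM for CFP to wide scatter among StufferOnly animals for IGHM.

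Most T cell genes rose in StufferOnly. Of 23 T cell genes, 14 rose and none fell (21 and 1 in the 6-library fit), with a median of 3.63. CD3E, a chain of the T cell receptor complex, had 6.14, 24.6 and 12.2 CPM in StufferOnly, against 1.17, 1.46 and 1.78 CPM in EmptyCapsid (log2 fold change 3.28, SE 0.70, adjusted p = 0.0228). LCK, the kinase that starts receptor signalling, had 2.64, 12.8 and 4.91 CPM in StufferOnly, against 0.104, 0.262 and 0.264 CPM in EmptyCapsid (log2 fold change 5.02, SE 1.13, adjusted p = 0.0252). CD8A, a co-receptor of cytotoxic T cells, had 33.0, 11.0 and 13.7 CPM in StufferOnly, against 4.66, 3.67 and 4.82 CPM in EmptyCapsid (log2 fold change 2.13, SE 0.51, adjusted p = 0.0299). CD3E and LCK were highest in replicate 2, but CD8A was highest in replicate 1. CD4, the helper co-receptor that macaque macrophages also carry, had 166, 212 and 150.1 CPM in StufferOnly, against 58.4, 4.46 and 41.9 CPM in EmptyCapsid (adjusted p = 0.0607). TRAC, the constant segment of the receptor alpha chain, pointed the other way, with 27.9, 32.4 and 24.0 CPM in StufferOnly, against 49.0, 40.7 and 54.0 CPM in EmptyCapsid (adjusted p = 0.141 in the joint fit and 0.0084 in the 6-library fit).

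Of 17 genes of T cell activation, checkpoint and regulation, 9 rose and none fell, with a median of 2.26, and the 6-library fit gave 11 and 2 of 16. LAG3, an inhibitory receptor, had 1.31, 5.17 and 2.19 CPM in StufferOnly, against 0.259, 0.1498 and 0.165 CPM in EmptyCapsid (log2 fold change 3.86, SE 0.67, adjusted p = 0.0187). CD274, the checkpoint ligand PD-L1, had 13.3, 16.2 and 21.1 CPM in StufferOnly, against 2.57, 4.79 and 4.33 CPM in EmptyCapsid (log2 fold change 2.12, SE 0.50, adjusted p = 0.0276). FOXP3, the factor of regulatory T cells, had 4.16, 8.18 and 6.43 CPM in StufferOnly, against 2.95, 2.66 and 3.53 CPM in EmptyCapsid (adjusted p = 0.0592). Groups were separate for all 3 genes. Of 16 cytotoxic and natural killer genes, 9 rose and none fell (11 and 0 of 13), with a median of 3.75. GZMB and GZMK, granzymes of killer cells, had 2.02, 3.83 and 2.13 CPM and 2.49, 7.35 and 5.38 CPM in StufferOnly, against 0, 0.1498 and 0 CPM and 0.0777, 0.1498 and 0 CPM in EmptyCapsid. PRF1, perforin, had 1.51, 5.17 and 2.91 CPM in StufferOnly, against 0.207, 0.449 and 0.132 CPM in EmptyCapsid (adjusted p = 0.0641). Of 21 B cell and plasma cell genes, 13 rose and none fell (15 and 0 of 20), with a median of 3.61. PAX5, the B cell identity factor, had 5.55, 21.2 and 10.5 CPM in StufferOnly, against 2.07, 0.899 and 1.65 CPM in EmptyCapsid (log2 fold change 2.996, SE 0.58, adjusted p = 0.02). JCHAIN, the joining chain of secreted antibody, had 73.2, 375 and 555 CPM in StufferOnly, against 1.84, 1.31 and 0.958 CPM in EmptyCapsid (log2 fold change 7.92, SE 1.64, adjusted p = 0.0216). MS4A1, which encodes CD20, had 2.40, 21.6 and 5.50 CPM in StufferOnly, against 0.363, 1.80 and 1.39 CPM in EmptyCapsid (adjusted p = 0.143). The order of animals differed: PAX5 and MS4A1 peaked in StufferOnly replicate 2 and JCHAIN in replicate 3, and MS4A1 replicate 1 was close to EmptyCapsid. CD22, an inhibitory receptor of B cells, did not pass, with 459.8, 767 and 528 CPM in StufferOnly, against 752, 709 and 561 CPM in EmptyCapsid, but lies next to the myelin gene MAG in T2T-MMU8v2.0, and its counts are uncertain for the reason given for FDFT1.

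Of 8 granulocyte and mast cell genes tested, 2 rose and none fell (2 of 6 in the 6-library fit), with a median of 1.96. In the 6-library fit the median was 0.95. DESeq2 called 4 higher and 0 lower. Every StufferOnly library was above EmptyCapsid in 6 of the 8 and below it in 2, against 26.8% and 22.3% of all genes. These figures are partly set by the filter. Of the 8 genes, 2 had no read in any EmptyCapsid library, so they passed it through vector-treated libraries only and could not lie below. CXCR2, a receptor for neutrophil chemokines, had 3.89, 4.76 and 3.52 CPM in StufferOnly, against 0.777, 0.599 and 0.396 CPM in EmptyCapsid (log2 fold change 2.76, SE 0.63, adjusted p = 0.0262); MMP9 was the other. The neutrophil markers MPO and S100A12 had 34 and 0 reads over the 3 StufferOnly libraries and 10 and 0 reads over EmptyCapsid, too few to test.

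Among signals between cells, 8 of 16 chemokines rose and 1 fell (10 and 2 of 14 in the 6-library fit), with a median of 3.59. CCL2, which recruits monocytes, had 8.52, 18.4 and 15.5 CPM in StufferOnly, against 1.81, 0.674 and 1.52 CPM in EmptyCapsid (log2 fold change 3.39, SE 0.62, adjusted p = 0.0194). CXCL9, which interferon gamma induces and which draws T cells, had 4.27, 26.0 and 11.6 CPM in StufferOnly and 0, 0 and 0.132 CPM in EmptyCapsid (adjusted p = 0.0235). CXCL14, a constitutive chemokine of brain and epithelia, fell, with 44.9, 27.2 and 37.8 CPM in StufferOnly, against 96.2, 121 and 142 CPM in EmptyCapsid (log2 fold change -1.71, SE 0.47, adjusted p = 0.0426). No library crossed between groups. Of 14 chemokine receptors, 7 rose and none fell (7 and 1 of 13), with a median of 1.85. CCR1 had 113, 93.0 and 127 CPM in StufferOnly, against 34.3, 34.2 and 32.8 CPM in EmptyCapsid (log2 fold change 1.72, SE 0.29, adjusted p = 0.0183), and CXCR5, which leads B cells to follicles, had 4.22, 11.4 and 2.72 CPM in StufferOnly, against 0.207, 0.262 and 0.462 CPM in EmptyCapsid (log2 fold change 4.28, SE 0.94, adjusted p = 0.0244). Of 23 cytokines, 11 rose and 2 fell (15 and 2), with a median of 1.86. IL1RN, the interleukin 1 receptor antagonist, had 2.55, 4.34 and 5.32 CPM in StufferOnly, against 0.311, 0.225 and 0.132 CPM in EmptyCapsid (log2 fold change 4.15, SE 0.60, adjusted p = 0.0161). TGFB1 had 73.2, 88.8 and 98.1 CPM in StufferOnly, against 22.6, 22.4 and 26.9 CPM in EmptyCapsid (log2 fold change 1.85, SE 0.34, adjusted p = 0.0194), while its family member TGFB3 fell, with 25.1, 21.3 and 21.9 CPM in StufferOnly, against 52.8, 43.9 and 49.0 CPM in EmptyCapsid (log2 fold change -1.09, SE 0.18, adjusted p = 0.0181). IL34, a CSF1R ligand made by neurons, also fell, with 45.0, 31.2 and 44.3 CPM in StufferOnly, against 81.1, 64.1 and 91.2 CPM in EmptyCapsid (log2 fold change -0.97, SE 0.24, adjusted p = 0.0313). TNF had 2.73, 3.65 and 3.59 CPM in StufferOnly, against 0.881, 0.225 and 1.06 CPM in EmptyCapsid (adjusted p = 0.0933), and IL6 had 0.505, 0.878 and 1.17 CPM in StufferOnly, against 1.11, 1.35 and 0.892 CPM in EmptyCapsid (adjusted p = 0.532). TNF was above EmptyCapsid in each StufferOnly animal without passing, and IL6 overlapped.

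Leukocyte adhesion genes rose in 12 of 17 cases and none fell (12 and 0 of 16 in the 6-library fit), with a median of 2.27. ITGAL, a chain of the leukocyte integrin LFA-1, had 89.4, 81.5 and 90.3 CPM in StufferOnly, against 4.38, 3.86 and 5.75 CPM in EmptyCapsid (log2 fold change 4.22, SE 0.73, adjusted p = 0.0187). ICAM1, its ligand, had 38.0, 67.6 and 48.1 CPM in StufferOnly, against 4.54, 4.42 and 5.55 CPM in EmptyCapsid (log2 fold change 3.40, SE 0.77, adjusted p = 0.0258). ITGA4, a chain of the integrin VLA-4, had 29.4, 111 and 51.9 CPM in StufferOnly, against 6.09, 7.64 and 6.80 CPM in EmptyCapsid (log2 fold change 3.22, SE 0.60, adjusted p = 0.0194), while VCAM1, its endothelial ligand, had 18.5, 22.4 and 30.6 CPM in StufferOnly, against 14.6, 17.4 and 11.99 CPM in EmptyCapsid (adjusted p = 0.215). ITGAL was nearly equal in the 3 StufferOnly animals and ITGA4 was dominated by replicate 2.

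Vascular genes were called in both directions. Of 17 endothelial and barrier genes, 2 rose and 3 fell (4 and 6 in the 6-library fit), with a median of -0.46. Over all genes 11.6% rose and 3.81% fell, so the 2 rises were near the share of all genes. Of the 17, 12 had a negative log2 fold change and 5 a positive one. SLCO1A2 was 1 that fell; TJP1, a tight junction scaffold, had 236, 218 and 256 CPM in StufferOnly, against 402, 419.7 and 367 CPM in EmptyCapsid (log2 fold change -0.74, SE 0.14, adjusted p = 0.0198), and ABCG2, an efflux pump, had 47.8, 37.1 and 54.3 CPM in StufferOnly, against 77.2, 79.4 and 92.5 CPM in EmptyCapsid (log2 fold change -0.84, SE 0.16, adjusted p = 0.02). VWF, von Willebrand factor, rose, with 185, 207 and 153 CPM in StufferOnly, against 45.2, 48.0 and 85.5 CPM in EmptyCapsid (log2 fold change 1.61, SE 0.31, adjusted p = 0.02), as did PECAM1, which leukocytes also carry, with 77.9, 176 and 112 CPM in StufferOnly, against 19.5, 24.9 and 27.6 CPM in EmptyCapsid (log2 fold change 2.35, SE 0.46, adjusted p = 0.02). CLDN5, the main claudin of the barrier, had 25.5, 19.9 and 17.4 CPM in StufferOnly, against 22.4, 26.7 and 30.1 CPM in EmptyCapsid (adjusted p = 0.401), with overlapping groups. Of 13 pericyte, muscle and fibroblast genes, 1 rose and 1 fell (3 and 1), with a median of -0.04: CEMIP, a hyaluronan-degrading protein, had 35.2, 103 and 79.4 CPM in StufferOnly, against 10.2, 16.4 and 14.2 CPM in EmptyCapsid (log2 fold change 2.42, SE 0.57, adjusted p = 0.0285), and RGS5, a pericyte marker, had 72.6, 36.9 and 56.9 CPM in StufferOnly, against 94.0, 115 and 109.5 CPM in EmptyCapsid (log2 fold change -0.94, SE 0.23, adjusted p = 0.0315). LUM, a fibroblast proteoglycan, had 24.4, 71.1 and 64.0 CPM in StufferOnly, against 7.41, 10.8 and 11.99 CPM in EmptyCapsid and did not pass (adjusted p = 0.0903), although every StufferOnly library was above EmptyCapsid.

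Matrix genes rose in part. Of 23 collagens and matrix proteins, 10 rose and none fell (17 and 1 in the 6-library fit), with a median of 1.03. Their summed level was not higher, at 2609 to 3312 CPM in StufferOnly and 3227 to 3986 CPM in EmptyCapsid. COL1A1, a chain of fibrillar collagen, had 61.1, 299 and 105 CPM in StufferOnly, against 6.22, 5.09 and 4.49 CPM in EmptyCapsid (log2 fold change 4.88, SE 1.22, adjusted p = 0.0329). COL18A1, a basement membrane collagen, had 41.7, 74.2 and 40.3 CPM in StufferOnly, against 10.6, 11.5 and 12.9 CPM in EmptyCapsid (log2 fold change 2.15, SE 0.44, adjusted p = 0.0214). Replicate 2 was highest for both, by a wide margin for COL1A1, and the summed fibroblast and pericyte list was 401.1 to 594.2 CPM in StufferOnly and 386 to 451.3 CPM in EmptyCapsid. Of 22 proteases and inhibitors, 8 rose and 1 fell (11 and 3 of 21), with a median of 1.06. MMP14, a membrane-bound protease, had 166, 382 and 213 CPM in StufferOnly, against 13.2, 13.3 and 10.4 CPM in EmptyCapsid (log2 fold change 4.37, SE 0.80, adjusted p = 0.0194). PLAU, urokinase, had 68.5, 84.6 and 59.1 CPM in StufferOnly, against 0.726, 0.524 and 1.62 CPM in EmptyCapsid (log2 fold change 6.20, SE 1.21, adjusted p = 0.02). TIMP3, an inhibitor bound to matrix, fell, with 154, 126 and 112 CPM in StufferOnly, against 237, 238 and 265 CPM in EmptyCapsid (log2 fold change -0.92, SE 0.17, adjusted p = 0.0194). Of 13 genes of perineuronal nets and neural proteoglycans, none rose and 3 fell (5 in the 6-library fit), with a median of -0.72. HAPLN2, a link protein of nodes of Ranvier, had 88.5, 124 and 119 CPM in StufferOnly, against 215, 264 and 188 CPM in EmptyCapsid (log2 fold change -1.01, SE 0.20, adjusted p = 0.0209). CSPG4, the proteoglycan NG2, had 24.5, 16.8 and 18.3 CPM in StufferOnly, against 31.2, 32.2 and 37.6 CPM in EmptyCapsid (log2 fold change -0.76, SE 0.20, adjusted p = 0.039). VCAN, given above, was the other.

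Astrocyte genes divided by function. Of 19 genes of reactive astrocytes, 13 rose and none fell (14 and 0 in the 6-library fit), with a median of 2.02. SERPINA3, a protease inhibitor, had 617, 681 and 1033 CPM in StufferOnly, against 46.1, 37.0 and 37.0 CPM in EmptyCapsid (log2 fold change 4.28, SE 0.79, adjusted p = 0.0194). CHI3L1, a secreted chitinase-like protein, had 487, 362 and 755 CPM in StufferOnly, against 85.0, 115 and 119.6 CPM in EmptyCapsid (log2 fold change 2.33, SE 0.37, adjusted p = 0.0181). VIM, vimentin, which many activated cell types carry, had 635, 1207 and 862 CPM in StufferOnly, against 56.8, 53.7 and 61.1 CPM in EmptyCapsid (log2 fold change 3.98, SE 0.85, adjusted p = 0.0228). These genes were at least 3-fold above the highest EmptyCapsid library in each StufferOnly animal. GFAP, the intermediate filament by which astrocytes are usually recognised, had 9967, 4736 and 8455 CPM in StufferOnly, against 6295, 5949.6 and 5996 CPM in EmptyCapsid (adjusted p = 0.584), above EmptyCapsid in replicates 1 and 3 and below it in replicate 2. Of 19 genes of homeostatic astrocyte functions, none rose and 3 fell in the joint fit, and 14 fell in the 6-library fit, with a median of -0.97. Besides KCNJ10, these were HEPACAM, an adhesion protein of astrocyte endfeet, with 238, 184 and 226 CPM in StufferOnly, against 399, 378 and 355 CPM in EmptyCapsid (log2 fold change -0.81, SE 0.15, adjusted p = 0.0194), and SLC4A4, a bicarbonate transporter, with 148, 100.3 and 105 CPM in StufferOnly, against 249, 325 and 342 CPM in EmptyCapsid (log2 fold change -1.37, SE 0.31, adjusted p = 0.0246). SLC1A2, the main glutamate transporter, had 553, 249 and 246 CPM in StufferOnly, against 1229.6, 1362 and 1596 CPM in EmptyCapsid (adjusted p = 0.0831, 0.004 in the 6-library fit). AQP4, the endfoot water channel, had 1684, 686 and 1258 CPM in StufferOnly, against 2605, 2404 and 2622 CPM in EmptyCapsid (adjusted p = 0.094, 0.032 in the 6-library fit). For both, replicate 1 was the StufferOnly library nearest to EmptyCapsid and the groups remained separate.

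Myelin genes fell. Of 23 tested, 13 fell and none rose (15 and 0 in the 6-library fit), with a median of -0.72. MAL, a raft protein of myelin, had 30.9, 32.2 and 30.5 CPM in StufferOnly, against 82.2, 63.4 and 58.8 CPM in EmptyCapsid (log2 fold change -1.13, SE 0.15, adjusted p = 0.0146). MBP, the basic protein that compacts myelin, had 8609.6, 9536 and 8751 CPM in StufferOnly, against 22702, 21771 and 14539.5 CPM in EmptyCapsid (log2 fold change -1.13, SE 0.26, adjusted p = 0.0268). StufferOnly libraries were within a narrow range, and EmptyCapsid replicate 3 was the lowest of its group for both. MOG, a surface protein of myelin, did not pass, with 252, 441 and 347 CPM in StufferOnly, against 473, 459.6 and 348 CPM in EmptyCapsid (adjusted p = 0.373), nor did MYRF, the regulator of myelin genes, with 303, 542 and 366 CPM in StufferOnly, against 504, 521 and 400.3 CPM in EmptyCapsid (adjusted p = 0.526). Replicate 2 overlapped EmptyCapsid in those 2 genes. Of 14 genes of the oligodendrocyte lineage and its precursors, 5 fell and none rose in both fits, with a median of -0.61. SOX8, a lineage transcription factor, had 74.9, 92.4 and 82.6 CPM in StufferOnly, against 163, 141 and 139 CPM in EmptyCapsid (log2 fold change -0.83, SE 0.15, adjusted p = 0.0188). ENPP6, an enzyme of newly formed oligodendrocytes, had 29.3, 35.0 and 32.3 CPM in StufferOnly, against 88.3, 93.1 and 49.1 CPM in EmptyCapsid (log2 fold change -1.26, SE 0.23, adjusted p = 0.0194). NKX2-2, another lineage factor, had 16.6, 15.8 and 23.4 CPM in StufferOnly, against 35.4, 32.1 and 33.9 CPM in EmptyCapsid (log2 fold change -0.86, SE 0.18, adjusted p = 0.0215). PDGFRA, the growth factor receptor of precursors, had 71.1, 53.3 and 81.0 CPM in StufferOnly, against 93.9, 94.5 and 98.9 CPM in EmptyCapsid (adjusted p = 0.128).

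Neuronal genes were lower in the StufferOnly group on the whole, but few passed in the joint fit. Of 17 genes of DCN projection neurons, 1 fell and none rose, with a median of -0.95, and 6 of 16 fell in the 6-library fit (3 without StufferOnly replicate 2). MEIS1, a homeodomain factor, had 31.5, 27.9 and 35.6 CPM in StufferOnly, against 57.3, 59.1 and 49.9 CPM in EmptyCapsid (log2 fold change -0.81, SE 0.18, adjusted p = 0.0258). SLC17A6 had 111, 54.0 and 53.7 CPM in StufferOnly, against 151, 181 and 179 CPM in EmptyCapsid (adjusted p = 0.442, 0.016 in the 6-library fit), and NEFH, the heavy neurofilament of large axons, had 619, 288 and 271 CPM in StufferOnly, against 542, 788 and 951 CPM in EmptyCapsid (adjusted p = 0.586). StufferOnly replicate 1 was the highest of its group for both, and for NEFH it overlapped EmptyCapsid. The summed level of the projection neuron list was 1333 to 2915 CPM in StufferOnly and 2903 to 4259 CPM in EmptyCapsid. Of 19 Purkinje cell genes, 1 fell and none rose (7 fell in the 6-library fit), with a median of -0.78. DNER, which binds Notch on Bergmann glia, fell (adjusted p = 0.0181). PCP4, a calmodulin-binding protein, had 19.1, 11.1 and 10.1 CPM in StufferOnly, against 60.2, 47.8 and 42.1 CPM in EmptyCapsid (adjusted p = 0.0646, 0.0019 in the 6-library fit). CALB1, the calcium buffer calbindin, had 9.38, 13.03 and 11.9 CPM in StufferOnly, against 27.4, 21.3 and 28.3 CPM in EmptyCapsid (adjusted p = 0.229, 0.0022 in the 6-library fit). PCP4 and CALB1 were lower in every StufferOnly animal. Of the 19, every StufferOnly library was below EmptyCapsid in 11 and above it in 2, against 22.3% and 26.8% of all genes. ITPR1 had 135, 139 and 125 CPM in StufferOnly, against 87.5, 118 and 97.2 CPM in EmptyCapsid (adjusted p = 0.447). HOMER3 had 36.0, 42.8 and 32.9 CPM in StufferOnly, against 32.5, 19.4 and 21.2 CPM in EmptyCapsid (adjusted p = 0.0826).

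Of 16 inhibitory neuron genes none passed in the joint fit, where 4 had an unadjusted p under 0.05; DESeq2 called 4 lower, 8 fell in the 6-library fit, and the median was -0.83. GAD1 and GAD2, which make GABA, had 70.0, 39.2 and 54.8 CPM and 78.5, 37.7 and 63.1 CPM in StufferOnly, against 109, 118 and 96.9 CPM and 115, 113 and 92.2 CPM in EmptyCapsid. SLC6A5, the transporter that marks glycinergic neurons, had 55.9, 18.3 and 25.3 CPM in StufferOnly, against 57.3, 51.3 and 39.2 CPM in EmptyCapsid (adjusted p = 0.663), with StufferOnly replicate 1 inside the EmptyCapsid range. Of 23 synaptic genes none passed in the joint fit, with 2 at an unadjusted p under 0.05 and 1 called higher by DESeq2. The 6-library fit called 1 higher and 9 lower (1 and 5 without StufferOnly replicate 2), and the joint fit without miSCA7Stuffer replicate 1 called 15 lower. The median was -0.76. The 1 gene higher in the 6-library fit was GRIA1, an AMPA receptor subunit, with 18.1, 19.0 and 18.2 CPM in StufferOnly, against 5.78, 3.97 and 8.82 CPM in EmptyCapsid (joint adjusted p = 0.116). Its partner subunit GRIA2, which makes the channel impermeable to calcium, had 102, 94.6 and 81.2 CPM in StufferOnly, against 171, 157 and 188 CPM in EmptyCapsid (joint adjusted p = 0.118). The 2 subunits were thus separate between the groups in opposite directions. Of 17 genes of the axon and its nodes none passed in the joint fit (1 at an unadjusted p under 0.05, 1 lower by DESeq2) and 8 fell in the 6-library fit (4 without StufferOnly replicate 2), with a median of -0.74. ANK3, the anchor of the axon initial segment, had 539, 474 and 373 CPM in StufferOnly, against 742, 759 and 748 CPM in EmptyCapsid (joint adjusted p = 0.11). Of 17 granule cell genes none passed in the joint fit (1 at an unadjusted p under 0.05, 1 lower by DESeq2) and 2 fell in the 6-library fit (4 without StufferOnly replicate 2), with a median of -0.01. Their summed level was 231.8 to 692.9 CPM in StufferOnly and 336.4 to 363.8 CPM in EmptyCapsid, the highest being StufferOnly replicate 2.

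**Figure D4:**
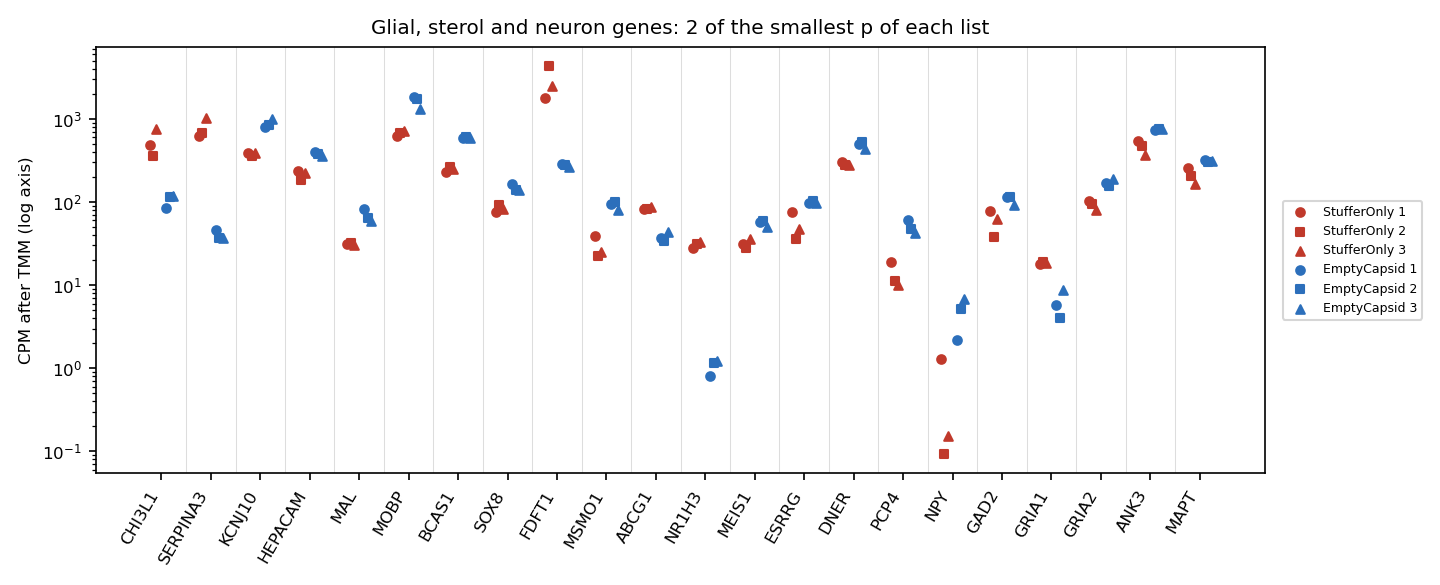
CPM (log axis) of glial, sterol and neuronal genes, 2 of those with the smallest p in each of 11 lists, 1 point a library for 3 StufferOnly and 3 EmptyCapsid animals. Reactive astrocyte and sterol export genes lie higher in StufferOnly, as SERPINA3 at 617 CPM or more against at most 46.1 CPM, and KCNJ10, myelin and most neuronal genes lie lower.

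Energy genes had small median changes. Of 24 nuclear genes of the respiratory chain, none rose and 2 fell (12 in the 6-library fit, 6 without StufferOnly replicate 2), with a median of -0.48. All 24 had a negative log2 fold change. Every StufferOnly library was below EmptyCapsid in 21 of them, against 22.3% of all genes. NDUFA4 had 80.4, 60.01 and 75.8 CPM in StufferOnly, against 123.3, 139.8 and 147 CPM in EmptyCapsid (log2 fold change -0.92, SE 0.21, adjusted p = 0.0273), and COX6A1 had 147, 122 and 122.6 CPM in StufferOnly, against 192, 195 and 207 CPM in EmptyCapsid (log2 fold change -0.60, SE 0.15, adjusted p = 0.0341), both subunits of cytochrome oxidase. Of 19 glycolysis genes, 3 rose and 1 fell (4 and 5), with a median of -0.06. SLC16A3, the lactate exporter of glycolytic cells, had 30.6, 33.0 and 27.1 CPM in StufferOnly, against 6.84, 7.75 and 10.4 CPM in EmptyCapsid (log2 fold change 1.86, SE 0.29, adjusted p = 0.0181), HK3, a hexokinase of myeloid cells, had 27.3, 37.3 and 27.1 CPM in StufferOnly, against 14.1, 16.2 and 14.3 CPM in EmptyCapsid (log2 fold change 1.04, SE 0.18, adjusted p = 0.0188), and HK2 rose by 0.98 on the log2 scale. LDHB, for which the more abundant of 2 rows is given, the lactate dehydrogenase subunit of oxidative cells, fell, with 26.7, 14.0 and 23.7 CPM in StufferOnly, against 46.3, 50.7 and 51.7 CPM in EmptyCapsid (log2 fold change -1.20, SE 0.34, adjusted p = 0.0461). Each was separate between the groups. Antioxidant genes split: of 20, 6 rose and 1 fell (7 and 6 in the 6-library fit), with a median of 0.17. GPX1, a glutathione peroxidase, had 165, 259.9 and 183 CPM in StufferOnly, against 14.6, 16.8 and 13.4 CPM in EmptyCapsid (log2 fold change 3.76, SE 0.76, adjusted p = 0.0207), and SLC7A11, the cystine importer, fell, with 87.4, 42.3 and 83.6 CPM in StufferOnly, against 130.1, 146 and 168 CPM in EmptyCapsid (log2 fold change -1.06, SE 0.27, adjusted p = 0.0332).

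Genes of cell death and inflammasomes rose in 18 of 23 cases and none fell (20 and 0 in the 6-library fit), with a median of 1.65. They include inhibitors of apoptosis as well as effectors. BCL2L1, which blocks apoptosis at mitochondria, had 100.3, 106 and 99.0 CPM in StufferOnly, against 44.9, 35.8 and 40.5 CPM in EmptyCapsid (log2 fold change 1.33, SE 0.20, adjusted p = 0.0178). BAX, which executes it, had 22.5, 25.7 and 19.9 CPM in StufferOnly, against 8.91, 7.53 and 11.2 CPM in EmptyCapsid (log2 fold change 1.30, SE 0.24, adjusted p = 0.0194). GSDMD, the pore former of pyroptosis, had 9.02, 14.4 and 9.64 CPM in StufferOnly, against 2.31, 2.55 and 1.29 CPM in EmptyCapsid (log2 fold change 2.42, SE 0.52, adjusted p = 0.0235). BCL2L1, BAX and GSDMD were separate between the groups. Of 13 genes of NF-kB signalling, 9 rose and none fell (13 and 0), with a median of 1.31. RELB, a subunit of the alternative pathway, had 16.0, 24.4 and 17.6 CPM in StufferOnly, against 3.52, 3.30 and 3.17 CPM in EmptyCapsid (log2 fold change 2.53, SE 0.46, adjusted p = 0.0192), and NFKBIA, the inhibitor that NF-kB induces, had 73.7, 79.1 and 58.2 CPM in StufferOnly, against 31.8, 32.5 and 34.6 CPM in EmptyCapsid (log2 fold change 1.09, SE 0.18, adjusted p = 0.0181).

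Stress programmes differed in size. Of 22 genes of the DNA damage response, 7 rose and none fell (13 and 1 in the 6-library fit), with a median of 1.03. CDKN1A, the cell cycle inhibitor p21, had 13.2, 55.8 and 30.0 CPM in StufferOnly, against 1.30, 0.787 and 1.65 CPM in EmptyCapsid (log2 fold change 4.72, SE 1.21, adjusted p = 0.0353). MDM2, a ubiquitin ligase, had 197, 209 and 197 CPM in StufferOnly, against 107, 94.7 and 90.4 CPM in EmptyCapsid (adjusted p = 0.0574, 0.00032 in the 6-library fit). Of 20 genes of the unfolded protein and integrated stress responses, 9 rose and 1 fell (12 and 2), with a median of 0.60. PPP1R15A, a phosphatase subunit that ends the integrated stress response, had 48.7, 103 and 76.2 CPM in StufferOnly, against 12.9, 11.6 and 15.3 CPM in EmptyCapsid (log2 fold change 2.52, SE 0.40, adjusted p = 0.0181). XBP1, the factor that plasma cells also need, had 67.4, 136 and 108 CPM in StufferOnly, against 40.5, 44.5 and 36.8 CPM in EmptyCapsid (log2 fold change 1.35, SE 0.29, adjusted p = 0.0235). HSPA5, the chaperone BiP, had 252, 261 and 218 CPM in StufferOnly, against 143, 211 and 194 CPM in EmptyCapsid (adjusted p = 0.1247), and DNAJB9 fell, with 38.6, 36.3 and 43.3 CPM in StufferOnly, against 49.9, 52.5 and 52.2 CPM in EmptyCapsid (log2 fold change -0.39, SE 0.11, adjusted p = 0.0495). Of 13 heat shock genes none rose and 1 fell, with 1 called on each side in the 6-library fit and a median of -0.21; HSPE1, a mitochondrial chaperonin, for which the more abundant of 2 rows is given, had 62.9, 45.0 and 54.4 CPM in StufferOnly, against 93.7, 80.7 and 93.1 CPM in EmptyCapsid (log2 fold change -0.72, SE 0.19, adjusted p = 0.0371). Of 18 immediate early genes, 12 rose and none fell (13 and 0 of 17), with a median of 1.87. JUN had 135, 146 and 139.7 CPM in StufferOnly, against 32.6, 27.3 and 31.3 CPM in EmptyCapsid (log2 fold change 2.21, SE 0.33, adjusted p = 0.0172), FOSL2 had 12.8, 18.7 and 13.2 CPM in StufferOnly, against 3.89, 4.01 and 3.07 CPM in EmptyCapsid (log2 fold change 2.02, SE 0.29, adjusted p = 0.0162), and ARC, a neuronal activity gene, had 2.67, 2.59 and 2.94 CPM in StufferOnly, against 0.466, 0.824 and 0.859 CPM in EmptyCapsid (log2 fold change 1.93, SE 0.38, adjusted p = 0.0202). JUN and ARC were nearly equal among the StufferOnly animals. Of 22 cell division genes, 4 rose and none fell (10 in the 6-library fit, 6 without StufferOnly replicate 2), with a median of 0.72: MKI67, the proliferation antigen, had 4.36, 32.5 and 11.4 CPM in StufferOnly, against 0.207, 1.20 and 0.793 CPM in EmptyCapsid (log2 fold change 4.48, SE 1.23, adjusted p = 0.0428), and BUB1B, a checkpoint kinase, had 11.1, 9.66 and 12.1 CPM in StufferOnly, against 1.11, 1.498 and 1.88 CPM in EmptyCapsid (log2 fold change 2.87, SE 0.72, adjusted p = 0.0334).

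Some genes of AAV entry were called higher, and few of RNA interference were called. Of 14 entry and trafficking genes, 4 rose and none fell (5 and 2 in the 6-library fit), with a median of 0.28. Every StufferOnly library was above EmptyCapsid in 8 of the 14 and below it in 3, against 26.8% and 22.3% of all genes. GPR108, a host factor for the entry of most AAV serotypes, had 47.1, 65.7 and 55.3 CPM in StufferOnly, against 22.8, 19.9 and 22.7 CPM in EmptyCapsid (log2 fold change 1.36, SE 0.24, adjusted p = 0.0187), and RNF121, another host factor, had 39.9, 54.7 and 45.2 CPM in StufferOnly, against 23.9, 21.0 and 25.0 CPM in EmptyCapsid (log2 fold change 0.999, SE 0.17, adjusted p = 0.0184); CTSB and CTSL, which are also lysosomal, were the others. KIAA0319L, the AAV receptor, did not pass, with 69.4, 85.7 and 66.6 CPM in StufferOnly, against 90.5, 93.8 and 77.8 CPM in EmptyCapsid (adjusted p = 0.236). Of 16 RNA interference genes, 2 rose and none fell (4 and 2 in the 6-library fit, 2 and 1 without StufferOnly replicate 2), with a median of -0.03. TUT7, which adds uridine to small RNA precursors, had 122, 145 and 140.3 CPM in StufferOnly, against 52.8, 51.3 and 55.1 CPM in EmptyCapsid (log2 fold change 1.36, SE 0.38, adjusted p = 0.0459), and DGCR8, the partner of the nuclear processor DROSHA, had 29.2, 41.8 and 36.8 CPM in StufferOnly, against 22.9, 26.4 and 24.2 CPM in EmptyCapsid (log2 fold change 0.55, SE 0.15, adjusted p = 0.0424). AGO2, the slicing Argonaute, had 37.7, 50.1 and 40.6 CPM in StufferOnly, against 46.3, 39.7 and 45.0 CPM in EmptyCapsid (adjusted p = 0.936), with overlapping groups. Among 12 ataxin and partner genes, which include the intended targets of the study's RNA interference cargos, 1 rose and none fell (3 and 2, or 2 and 1 without StufferOnly replicate 2), with a median of -0.06: CIC, a repressor that binds ataxin 1, had 152, 161 and 138 CPM in StufferOnly, against 119.9, 108 and 109.8 CPM in EmptyCapsid (log2 fold change 0.42, SE 0.11, adjusted p = 0.0329). ATXN1 had 49.2, 48.5 and 50.3 CPM in StufferOnly, against 45.2, 53.6 and 57.3 CPM in EmptyCapsid (adjusted p = 0.862), and ATXN7 had 40.5, 46.8 and 42.6 CPM in StufferOnly, against 36.5, 32.7 and 34.4 CPM in EmptyCapsid (adjusted p = 0.182). For ATXN1 the groups overlapped, and for ATXN7 StufferOnly was slightly above EmptyCapsid in each animal.

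The counts of falling members were those most altered when miSCA7Stuffer replicate 1, the library with little vector, was left out of the joint fit. Calls over all genes tested changed as well, to 16.3% higher and 17.3% lower of 21539 genes, in place of 11.6% and 3.81% of 20882, and the list counts are to be read against those shares. Falls then numbered 15 of the homeostatic astrocyte list in place of 3, 19 of the respiratory chain list in place of 2, 15 of sterol synthesis in place of 7 and 7 of perineuronal nets in place of 3. For neurons they numbered 10 projection neuron, 9 Purkinje cell, 9 inhibitory and 10 axonal genes, against 1, 1, 0 and 0 with that library. Oligodendrocyte lineage falls went up to 9, glycolysis falls to 8, antioxidant falls to 7 and barrier falls to 6, while myelin falls numbered 17. Among rises, interferon-stimulated genes numbered 23 in place of 11, DNA damage response genes 13 in place of 7, chemokines 13 in place of 8 and cell division genes 10 in place of 4. In the 6-library fit without StufferOnly replicate 2, the 2 falls each of the T cell regulation, sterol export, stress response and AAV entry lists became 1. Rises there went from 21 to 16 for T cell genes, 17 to 12 for collagens and matrix proteins and 11 to 9 for cytotoxic genes. They went up from 14 to 15 for reactive astrocytes, 11 to 12 for complement receptors and regulators and 12 to 13 for oxidase and eicosanoid genes. Over all genes tested, rises went from 18.9% to 15.2%.

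Markers of tissue next to the DCN did not separate the groups. None of 8 choroid plexus and ependyma genes passed in either edgeR fit or by DESeq2, and 0 had an unadjusted p under 0.05, with summed levels of 22.1 to 47.7 CPM in StufferOnly and 26.3 to 35.0 CPM in EmptyCapsid and a median log2 fold change of 0.08. Of 7 Schwann cell genes only EGR2, also an immediate early gene of lymphocytes and macrophages, rose in both fits, with 12.6, 19.4 and 22.4 CPM in StufferOnly, against 0.881, 0.899 and 2.01 CPM in EmptyCapsid (log2 fold change 3.84, SE 0.91, adjusted p = 0.0283); the list median was 0.42. None of the 8 Y-linked genes passed in either edgeR fit or by DESeq2, and 0 had an unadjusted p under 0.05. Their reads were present or near 0 by animal within both groups, so these tests could hardly call them. The result does not show that the sexes were balanced. Their summed level was 0.185 to 503.1 CPM in StufferOnly and 0.674 to 422.9 CPM in EmptyCapsid, and the median was -0.82.

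Against the third group, StufferOnly tissue gave no call. Of 20882 genes in the joint fit, 0 differed between StufferOnly and miSCA7Stuffer at an adjusted p under 0.05 with edgeR, 2117 had an unadjusted p under 0.05, and limma-voom called 0. DESeq2 called 476, of which 177 were higher in StufferOnly and 299 lower. Without miSCA7Stuffer replicate 1, edgeR called 343, of which 150 were higher in StufferOnly and 193 lower. That library had almost no vector reads and lay at -90.3 on principal component 1, beside EmptyCapsid, while the other miSCA7Stuffer libraries lay at 75.0 and 74.2.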

How the data were processed

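Total RNA of macaque DCN was rRNA-depleted and made into directional libraries, per the labels' protocols. The authors deposited featureCounts tables of raw read counts per gene, made from alignments with STAR 2.6.0c per the submitters' processing notes, and, per the file headers, with reads that overlap more than 1 gene assigned to all of them. Genome build, annotation release and strand setting: not given in the sources used here, so overlapping and antisense genes are uncertain.

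The quasi-likelihood F test of edgeR 4.0.16 (R 4.3.3) was run on the counts of 9 libraries: StufferOnly, miSCA7Stuffer and EmptyCapsid, 3 each. The filterByExpr rule (10 counts, total 15) chose the genes, which were scaled by TMM, and p values adjusted by Benjamini-Hochberg over all genes tested at 0.05. CPM are after TMM, fold changes use a prior count of 0.125, and SE come from the F statistic. Of 34847 gene rows, 24009 have a symbol, and 8 vector rows were kept out of the tests and given as RPM. DESeq2 1.42.0, limma-voom 3.58.1, other scaling, no filter, the compared pair alone, replicate block and leaving out each library were alternatives. The scripts were tested on simulated data. Python 3.11.15, pandas 2.3.3, SciPy 1.17.1 and matplotlib 3.10.9 were used for tables, permutation and figures.

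The comparison and the 57 gene lists (1073 entries, 1017 matched to a row, some genes in several lists) were chosen with earlier results of these data known. Named genes are the 8 largest rises and falls, the 8 smallest p on each side, the 4 smallest p in each list, members moving against their list, and cell type markers. Other members named were chosen after their values were seen. Results for some genes are not reported here.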

Additional observations from a re-analysis of the deposited data

How the results depend on the processing

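Counts of calls depended on the libraries in the fit. No gene of the 3219 called changed sign in any joint fit that left out a library. That is no test of direction, because the groups did not overlap in 3218 of these genes and leaving out 1 library could hardly reverse them. With 2424 genes higher and 795 lower in the joint fit, DESeq2 gave 3391 and 1938, limma-voom 1715 and 740, size factors by RLE 2230 and 959, and no filter on low counts 2191 and 585. The pair of groups fitted alone gave 3786 and 2528. Leaving out 1 StufferOnly or EmptyCapsid library gave 0 to 2018 higher and 0 to 575 lower in the joint fit, and 2690 to 4277 higher and 1056 to 3646 lower in the 6-library fit. Chosen after seeing the data were the 6-library fits without 1 library, with the replicate block or by DESeq2, and the joint fit without miSCA7Stuffer replicate 1, with 3520 higher and 3735 lower. DESeq2 on the 6 libraries gave 4095 and 3503. The cause of the drop in the joint fit was not tested. Replicate numbers do not pair the animals: same-numbered deviations correlated at 0.048, 0.060 and -0.065. The replicate block gave 2370 higher and 929 lower in the joint fit, and 3203 and 2070 in the 6-library fit.

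Between StufferOnly and miSCA7Stuffer, 0 genes were called in the joint fit with the block or without it, 476 with DESeq2 and 1 without the filter on low counts. Leaving out 1 library gave 0 to 343, the highest without miSCA7Stuffer replicate 1. The vector difference was 10.29 on the log2 scale, 10.70 for the largest single row, 767.5 RPM on the raw scale, and 9.93 to 10.68 without 1 library, where the smallest exact permutation p possible is 0.2. With 3 animals a group, a difference that missed the threshold does not show equal levels.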
